A study of Mus musculus with 13 samples.

Results

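Matrix metalloproteinases (MMPs), ADAMTS proteases and their inhibitors, the TIMPs, were followed in mouse interfollicular keratinocytes, which line the epidermis outside the follicles, after deletion of Il12rb2, a chain of the interleukin-12 receptor, and after 1 day of Aldara. The members were all genes of the count table whose symbol begins with Mmp or Adamts and a number, or consists of Timp and a number. They came to 46 of 25746 genes, with 23 Mmp, 19 Adamts and 4 Timp genes. A filter on low counts passed 38 of them, comprising 17 Mmp, 17 Adamts and all 4 Timp genes. The 8 that did not pass were Mmp1a, Mmp7, Mmp8, Mmp20, Mmp21, Mmp25, Adamts13 and Adamts16, none of which exceeded 2.97 CPM (read counts scaled to a common library size) in any library. They are accounted for here only by that limit, and the annotation lists Mmp1a as a polymorphic pseudogene.

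The 13 bulk libraries came from C57/BL6 mice in 4 groups. K14Cre/+ Il12rb2fl/fl mice (called Il12rb2-deleted here) gave 3 libraries after topical Aldara, a cream with 5% imiquimod, and 4 untreated libraries. Il12rb2fl/fl mice without Cre (floxed control) gave 3 libraries after Aldara and 3 untreated libraries. Floxed Il12rb2 alleles were thus present in all groups, and K14Cre is active in cells that express keratin 14, such as basal keratinocytes. Neither a cream without imiquimod nor Cre without floxed alleles was analysed here, so the effect of imiquimod cannot be told apart from that of the cream, nor that of the deletion from that of Cre. No source used here gives the ages of the mice. The labels number replicates without saying whether each is its own animal, and the spread behind every p-value may therefore be technical.

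MMPs are zinc-dependent proteases that are made as inactive proenzymes and cut collagens, laminins, other matrix proteins and cell-surface proteins. ADAMTS proteases are secreted relatives with thrombospondin repeats, and among them are the procollagen N-proteinases and the proteases of aggrecan and versican. TIMPs are small secreted proteins that bind the active site of these enzymes. In skin, several members are known from wound edges and inflamed epidermis, and many are made mainly by dermal cells.

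Libraries held 5830034 to 22232478 counts. Gm10800, a gene model that is not a member, took more than 5% of the counts in 3 untreated libraries (replicate 2 of the floxed control, and replicates 1 and 2 of the Il12rb2-deleted group). Il12rb2 itself stood at 0, 1.07 and 1.64 CPM in Il12rb2-deleted cells after Aldara, below the 1.98, 8.14 and 2.68 CPM in floxed control cells after Aldara. Untreated, it stood at 22.7, 8.52, 25.6 and 19.0 CPM in Il12rb2-deleted cells and at 17.1, 78.8 and 52.7 CPM in floxed control cells, so the untreated genotypes overlapped. These are counts over the whole gene and do not resolve the floxed exons. Basal keratinocyte markers such as Krt5 and Krt14 summed to 12953 to 21512 CPM with Aldara against 40189 to 68318 CPM untreated in Il12rb2-deleted cells, and to 12924 to 20789 CPM against 25786 to 45705 CPM in floxed control cells. Of the 8 basal markers, 6 were called lower after Aldara on average, and sebaceous, hair follicle and fibroblast markers were also present in every library.

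The promoters of 3 members are shown because they frame the results: Mmp11 was the only member called higher after Aldara by edgeR, Mmp3 was among those called lower, and Mmp13 lies near Mmp3 in the Mmp gene group on chromosome 9 and was high in the same single untreated library. Each line holds the 250 bases before the RefSeq start on build GRCm38.p6, read 5′ to 3′ on the gene's strand, at chr10:75932503-75932752 (minus strand) for Mmp11, chr9:7445572-7445821 (plus) for Mmp3 and chr9:7272264-7272513 (plus) for Mmp13. Capitals mark the AP-1 motif TGANTCA and the TATA motif TATAAA.
Mmp11: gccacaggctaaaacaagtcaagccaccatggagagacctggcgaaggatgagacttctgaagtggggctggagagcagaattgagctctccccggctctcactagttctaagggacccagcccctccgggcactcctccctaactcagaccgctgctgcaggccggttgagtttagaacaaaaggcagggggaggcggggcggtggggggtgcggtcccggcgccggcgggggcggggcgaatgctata
Mmp3: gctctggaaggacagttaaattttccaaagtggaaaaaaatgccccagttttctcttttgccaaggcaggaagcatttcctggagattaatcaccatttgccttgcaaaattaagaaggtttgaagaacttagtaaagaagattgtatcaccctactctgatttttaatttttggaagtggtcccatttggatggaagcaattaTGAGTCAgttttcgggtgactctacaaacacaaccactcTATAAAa
Mmp13: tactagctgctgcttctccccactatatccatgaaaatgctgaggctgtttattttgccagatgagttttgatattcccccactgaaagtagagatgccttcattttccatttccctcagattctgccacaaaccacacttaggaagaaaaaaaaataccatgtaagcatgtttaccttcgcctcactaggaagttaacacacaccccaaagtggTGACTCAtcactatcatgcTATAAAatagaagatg

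Both motifs were searched on both strands and did not overlap each other. In Mmp3 the AP-1 match begins 46 bases before the start and the TATA match 7 bases before it. In Mmp13 the AP-1 match begins 35 bases and the TATA match 16 bases before the start. Neither motif occurs in the Mmp11 window, 63.2% of which is G or C, against 37.6% in Mmp3 and 40.4% in Mmp13. The windows of Mmp28 and Adamts14, both called lower after Aldara on average, hold neither motif either. They are 62% and 76.4% G or C, so these features did not separate the member that rose from those that fell. RefSeq promoters were found for 32 of the 46 members, and 8 of these hold the AP-1 motif, namely Mmp1a, Mmp1b, Mmp3, Mmp7, Mmp10, Mmp12, Mmp13 and Mmp20. All 8 belong to the chromosome 9 group, of which 10 members were matched. A member with 2 promoters, as Mmp7, Mmp12 and Mmp23 have, counts once if either holds the motif. The shares over all promoters that follow are per promoter and not per gene. The motif occurs in 6.75% of the 32851 mouse promoters in the same table. The TATA motif occurs in 9 matched members, 7 of them in the chromosome 9 group, and in 12.4% of all promoters.

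Mmp11, encoding stromelysin-3, which is unusual among secreted MMPs in being cleaved to its active form inside the cell by furin-like convertases, was the only member that edgeR called higher after Aldara. DESeq2 also called Mmp9 higher in floxed control cells (adjusted p = 0.00331) and on average (0.0111), but floxed control cells had a single Mmp9 read after Aldara and none untreated, so no fold is given. In Il12rb2-deleted cells Mmp11 stood at 35.3, 57.4 and 46.8 CPM after Aldara, against 6.26, 9.51, 5.83 and 3.27 CPM untreated. Floxed control cells had 59.5, 53.2 and 29.5 CPM after Aldara, against 11.8, 6.93 and 3.61 CPM untreated. All 6 Aldara libraries lay above all 7 untreated libraries, which held for 6.29% of the 16051 genes tested. The means were 46.5 ± 11.1 CPM (SD, n = 3) with Aldara against 6.22 ± 2.56 CPM (n = 4) untreated in Il12rb2-deleted cells, and 47.4 ± 15.8 CPM against 7.44 ± 4.11 CPM in floxed control cells (SD, n = 3 each).

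The rise of Mmp11 was 7.60-fold in Il12rb2-deleted cells (log2 fold change 2.93, SE 0.43, edgeR adjusted p = 0.000835) and 6.38-fold in floxed control cells (2.67, SE 0.47, adjusted p = 0.00651). Averaged over the genotypes it was 6.96-fold (log2 fold change 2.80, 95% interval 2.11 to 3.49, adjusted p = 5e-05). The call held in each genotype whichever single library was left out. The Aldara effects in the 2 genotypes differed by 0.25 on the log2 scale, with a 95% interval of -1.06 to 1.56. Mmp11 lies at chr10:75923222-75936496 (GRCm38, minus strand), and 155 bases of its exons, 5.58% of their length, overlap those of Chchd10 on the plus strand. Chchd10 averaged 127 ± 23.9 CPM with Aldara against 13.2 ± 5.28 CPM untreated in Il12rb2-deleted cells, and its averaged log2 fold change was 2.96 (adjusted p = 3.11e-05). The libraries do not mark strand, so reads from the shared bases cannot be assigned to either gene, and their part in the Mmp11 counts was not tested.

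**Figure D1:**
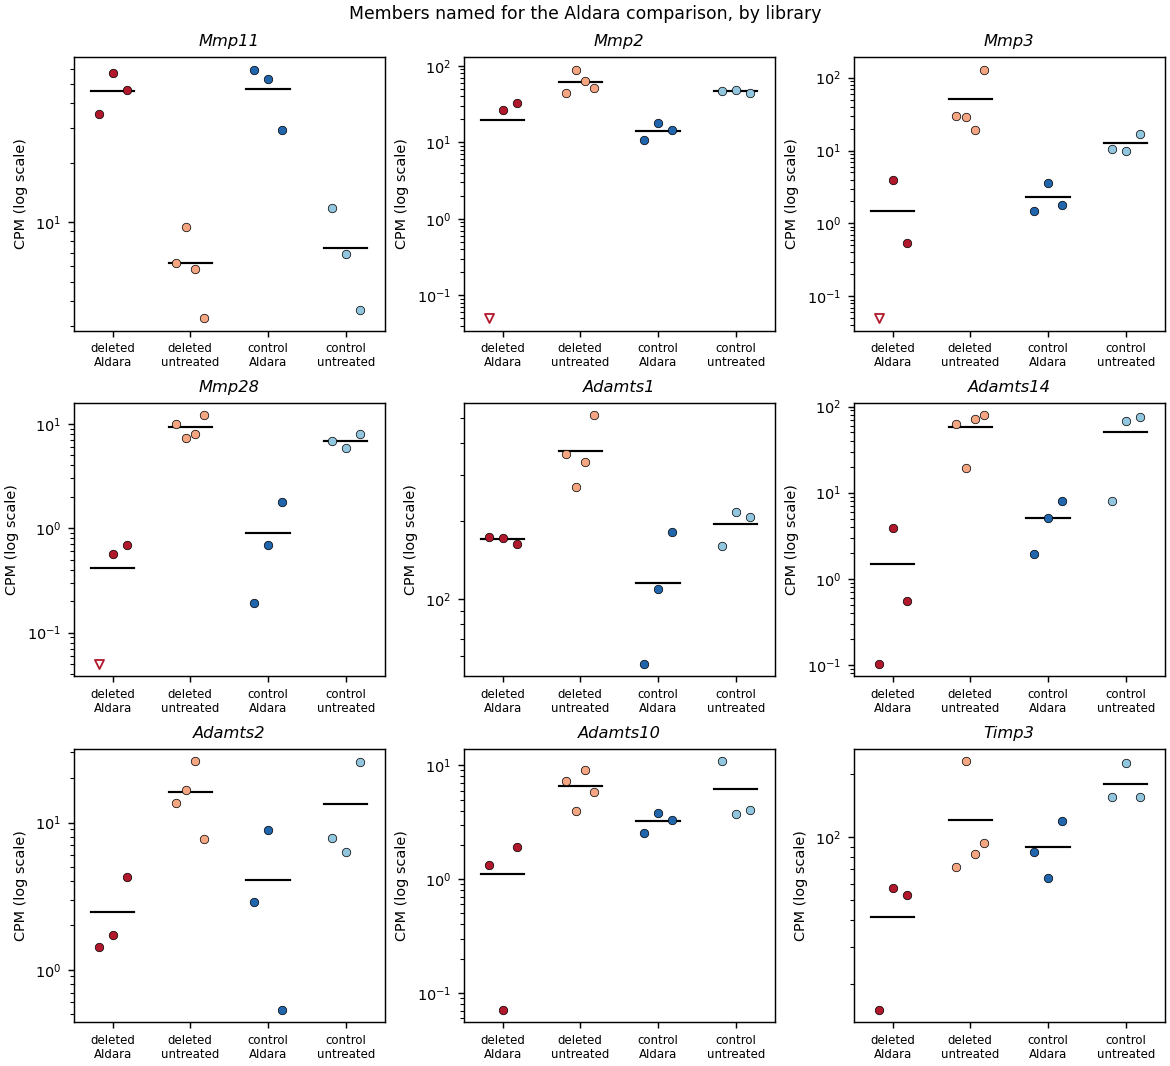
Levels of 9 members in each library, in CPM on a log axis, by group; each point is a library, lines are group means and open triangles mark libraries with no count. Mmp11 is above every untreated library in all 6 Aldara libraries, while Mmp2, Mmp3 and Mmp28 are below every untreated library in all 6.

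Over the whole group, 1 of the 38 members that passed the filter was called higher and 7 lower after Aldara when the genotypes were averaged, at an edgeR adjusted p under 0.05. DESeq2 called 11 members in that comparison, but its share over all genes is not given here, and the shares that follow are those of edgeR. The edgeR calls are 21.1% of the 38, against 24.9% of all genes tested (13% higher, 11.9% lower), so the share of members called was not above the background. In Il12rb2-deleted cells 1 member was called higher and 6 lower, or 18.4%, against 15.5% of all genes (7.81% higher, 7.69% lower). Among floxed control cells 1 was called higher and 1 lower, or 5.26%, against 7.05% of all genes (4.15% higher, 2.9% lower). By family, the averaged comparison called 1 Mmp gene higher and 2 lower of 17, 4 Adamts genes lower of 17, and 1 Timp gene lower of 4. The median log2 fold change was -1.18 over the 38 members, against -0.15 over all genes, and it was -0.22 for Mmp, -1.60 for Adamts and -0.89 for Timp genes. Fitted values were below 0 for 29 of the 38. Within a genotype, 9 members were lower without overlap in Il12rb2-deleted cells, where 14.8% of genes were, and 5 in floxed control cells, where 14.7% were. Mmp11 was the one member higher without overlap in each, against 14.2% of genes in Il12rb2-deleted and 13.1% in floxed control cells.

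**Figure D2:**
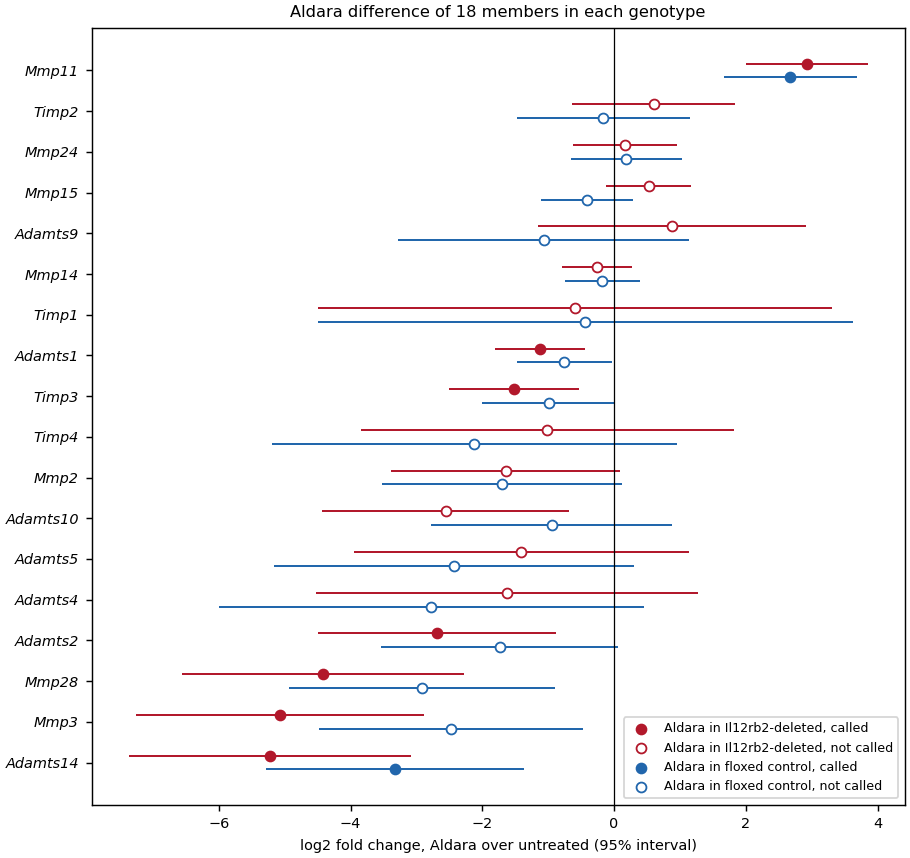
Log2 fold change of Aldara over untreated for 18 members, with 95% intervals, in Il12rb2-deleted cells (red, upper row of each pair) and floxed control cells (blue, lower row); filled symbols passed an edgeR adjusted p of 0.05. Mmp11 is filled on the right in both genotypes (2.93 and 2.67), and Adamts14 is filled on the left in both (-5.23 and -3.33).

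Mmp3, encoding stromelysin-1, a protease of proteoglycans, laminin and fibronectin that also activates other pro-MMPs, fell. In Il12rb2-deleted cells it stood at 0, 3.93 and 0.547 CPM after Aldara, against 29.8, 28.5, 19.1 and 129.1 CPM untreated. The floxed control values were 1.47, 3.60 and 1.80 CPM after Aldara, against 10.6, 9.92 and 17.0 CPM untreated. All Aldara libraries were below all untreated ones, which held for 5.48% of genes tested, and the promoter of the gene is the A- and T-rich one printed above. The log2 fold change was -5.07 (SE 1.03, edgeR adjusted p = 0.00419) in Il12rb2-deleted cells, and in floxed control cells it was -2.48 (SE 0.94, adjusted p = 0.130), which did not pass. The averaged value was -3.77 (95% interval -5.24 to -2.31, adjusted p = 0.00103), and the 2 effects differed by -2.59 (-5.30 to 0.11, unadjusted p = 0.0588). The zero belongs to Il12rb2-deleted Aldara replicate 1, where a count of 0 allows up to 0.307 CPM by counting error.

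Mmp28, encoding epilysin, an MMP known from epidermis, fell as well. In Il12rb2-deleted cells it stood at 0, 0.571 and 0.684 CPM after Aldara, against 10.0, 7.33, 8.09 and 12.1 CPM untreated. In floxed control cells it stood at 0.192, 0.697 and 1.80 CPM after Aldara, against 6.92, 5.86 and 7.94 CPM untreated. The untreated libraries lay close together in both genotypes, and no Aldara library reached them. The log2 fold change was -4.42 (SE 1.00, adjusted p = 0.00819) in Il12rb2-deleted cells and -2.91 (SE 0.95, adjusted p = 0.0777) in floxed control cells, and the average was -3.67 (-5.13 to -2.20, adjusted p = 0.00121). In floxed control cells the adjusted p was 0.0235 without Il12rb2-deleted Aldara replicate 1 and 0.0450 without floxed control Aldara replicate 3. The overlapping gene 1700020L24Rik shares 12.03% of the Mmp28 exon length and was itself under 1 CPM on average in every group.

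Mmp2, encoding gelatinase A, a protease of denatured collagen and type IV collagen that is known mainly from fibroblasts, was lower in every Aldara library than in any untreated one, but its averaged test narrowly missed the threshold. In Il12rb2-deleted cells it stood at 0, 26.6 and 32.5 CPM after Aldara, against 44.0, 89.5, 62.8 and 51.9 CPM untreated. Floxed control cells had 10.6, 17.9 and 14.3 CPM after Aldara, against 46.9, 48.5 and 43.6 CPM untreated. The averaged log2 fold change was -1.67 (SE 0.59, edgeR adjusted p = 0.0507). Without Il12rb2-deleted Aldara replicate 1, the library with no Mmp2 count, the value was -1.39 and the adjusted p was 0.000416, and without Il12rb2-deleted Aldara replicate 3 they were -1.96 and 0.0455.

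Mmp14, Mmp15 and Mmp24, the membrane-type MMPs with a mean of at least 10 CPM in a group, did not pass the test in any comparison. Mmp14, encoding MT1-MMP, which activates pro-MMP2 at the cell surface, stood at 84.0, 125 and 105 CPM after Aldara and at 138, 98.4, 121 and 141 CPM untreated in Il12rb2-deleted cells. The floxed control values were 108, 102 and 143 CPM after Aldara and 87.9, 134 and 178 CPM untreated. The groups overlapped in both genotypes, and the averaged log2 fold change was -0.22 with a 95% interval of -0.60 to 0.17. Mmp24, encoding MT5-MMP, stood at 10.7, 12.3 and 11.3 CPM after Aldara and at 11.1, 13.7, 7.08 and 9.16 CPM untreated in Il12rb2-deleted cells. Its floxed control values were 12.4, 19.5 and 11.3 CPM after Aldara and 13.6, 13.01 and 11.3 CPM untreated. These groups overlapped too, with an averaged change of 0.17 (-0.40 to 0.75), and 13.6% of the Mmp24 exon length is shared with BC029722 on the other strand.

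Mmp15, encoding MT2-MMP, stood at 22.8, 34.1 and 39.2 CPM after Aldara and at 25.5, 27.5, 22.2 and 14.03 CPM untreated in Il12rb2-deleted cells. Its floxed control values were 28.5, 19.1 and 23.7 CPM after Aldara and 38.6, 32.0 and 24.3 CPM untreated. The groups overlapped in Il12rb2-deleted cells, whose Aldara mean was the higher one, and in floxed control cells, whose Aldara mean was the lower one. The averaged change was 0.06 (-0.42 to 0.53). Mmp15 averaged 32.0 ± 8.39 CPM with Aldara against 22.3 ± 5.94 CPM untreated in Il12rb2-deleted cells, and 23.8 ± 4.71 CPM against 31.6 ± 7.18 CPM in floxed control cells. The difference between these effects was 0.94 (-0.01 to 1.89), which did not pass (unadjusted p = 0.0528, edgeR).

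Among the ADAMTS proteases, 2 of the 3 procollagen N-proteinase genes, Adamts14 and Adamts2, fell after Aldara. The enzymes remove the amino-terminal propeptide of fibrillar procollagens. Adamts14 stood at 0.102, 3.85 and 0.547 CPM after Aldara in Il12rb2-deleted cells, against 62.7, 19.4, 71.1 and 79.2 CPM untreated. In floxed control cells it stood at 1.92, 5.11 and 8.08 CPM after Aldara, against 8.03, 68.7 and 75.7 CPM untreated. The groups did not overlap in Il12rb2-deleted cells, whereas floxed control untreated replicate 1 lay among the Aldara libraries of its genotype. The log2 fold change was -5.23 (SE 1.01, adjusted p = 0.00316) in Il12rb2-deleted cells, -3.33 (SE 0.92, adjusted p = 0.0425) in floxed control cells and -4.28 (-5.72 to -2.83, adjusted p = 0.000383) on average. The call in floxed control cells was lost without any one of 8 libraries. Its adjusted p was 0.137 and 0.136 without floxed control untreated replicates 2 and 3, and 0.150, 0.113 and 0.0543 without floxed control Aldara replicates 1, 2 and 3. Without Il12rb2-deleted untreated replicates 1, 3 and 4 it was 0.0558, 0.0559 and 0.0511.

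Adamts2, the founding procollagen N-proteinase, stood at 1.43, 1.71 and 4.24 CPM after Aldara in Il12rb2-deleted cells, against 13.5, 16.6, 26.2 and 7.75 CPM untreated. Floxed control cells had 2.87, 8.83 and 0.535 CPM after Aldara, against 7.81, 6.29 and 25.97 CPM untreated, and there the groups overlapped. The averaged log2 fold change was -2.21 (SE 0.60, adjusted p = 0.0131), and the adjusted p was 0.0513 without floxed control untreated replicate 3. The change was -2.69 (SE 0.85, adjusted p = 0.0430) in Il12rb2-deleted cells alone and -1.74 (SE 0.85, adjusted p = 0.256) in floxed control cells alone. The call in Il12rb2-deleted cells was lost without any one of 8 libraries, with adjusted p of 0.0508 and 0.0521 without floxed control untreated or Aldara replicate 1. Leaving out Il12rb2-deleted untreated replicate 1, 2 or 3 gave 0.0693, 0.0632 and 0.102, and leaving out Il12rb2-deleted Aldara replicate 1, 2 or 3 gave 0.132, 0.141 and 0.0516. Adamts3, the other gene of the kind, was near the limit of detection, with 0.511, 0.428 and 0.410 CPM after Aldara against 1.71, 0.396, 0 and 0 CPM untreated in Il12rb2-deleted cells. Adamts3 in floxed control cells had 0.319, 0 and 0.292 CPM after Aldara against 1.18, 1.81 and 0 CPM untreated, and its averaged change of -1.20 did not pass (adjusted p = 0.579).

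Adamts1, which cuts versican and aggrecan, was the member with the highest level per kilobase of exon in all 4 groups. In Il12rb2-deleted cells it stood at 173, 172 and 163 CPM after Aldara, against 363, 271, 338 and 512 CPM untreated. The floxed control values were 56.0, 109 and 181 CPM after Aldara, against 159.8, 217 and 206 CPM untreated. The groups were apart in Il12rb2-deleted cells and overlapped in floxed control cells. The averaged log2 fold change was -0.94 (-1.44 to -0.45, adjusted p = 0.00774), with -1.13 (SE 0.32, adjusted p = 0.0269) in Il12rb2-deleted and -0.75 (SE 0.34, adjusted p = 0.207) in floxed control cells. The call in Il12rb2-deleted cells was lost without Il12rb2-deleted untreated replicate 1 or 4 (adjusted p = 0.0528 and 0.0713) and without Il12rb2-deleted Aldara replicate 1, 2 or 3 (0.0725, 0.0810 and 0.0829). In floxed control cells Adamts1 passed without floxed control Aldara replicate 3 (-1.24, adjusted p = 0.0324).

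Adamts10, whose product binds fibrillin, stood at 1.33, 0.0714 and 1.92 CPM after Aldara in Il12rb2-deleted cells, against 7.29, 3.96, 9.02 and 5.77 CPM untreated. Its floxed control values were 2.55, 3.84 and 3.31 CPM after Aldara, against 10.9, 3.73 and 4.06 CPM untreated, and overlapped. Its averaged log2 fold change of -1.75 passed by little (SE 0.61, edgeR adjusted p = 0.0476), and the call was lost in 11 of the 13 refits that left out 1 library, all but those without Il12rb2-deleted untreated replicate 2 or Il12rb2-deleted Aldara replicate 3. The adjusted p in these refits reached at most 0.154, without floxed control untreated replicate 1.

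The aggrecan proteases Adamts4 and Adamts5 did not pass by edgeR, although DESeq2 called both lower on average (adjusted p = 0.0428 and 0.0411). Adamts4 stood at 1.23, 4.71 and 4.51 CPM after Aldara and at 13.97, 17.0, 0.0778 and 12.2 CPM untreated in Il12rb2-deleted cells. Its floxed control values were 0, 3.60 and 0.0487 CPM after Aldara and 3.39, 9.17 and 11.1 CPM untreated. One untreated library of each genotype lay within the Aldara range or below it, and the averaged change was -2.20 (edgeR adjusted p = 0.135). Adamts5 stood at 0.614, 1.28 and 3.35 CPM after Aldara and at 6.09, 10.5, 0.0778 and 2.37 CPM untreated in Il12rb2-deleted cells. Its floxed control values were 3.00, 2.79 and 0.0973 CPM after Aldara and 4.12, 16.2 and 11.2 CPM untreated, without overlap. The averaged change of Adamts5 was -1.92 (adjusted p = 0.130). Adamts9, a versican protease, stood at 31.9, 2.36 and 3.49 CPM after Aldara in Il12rb2-deleted cells, against 5.31, 16.0, 5.83 and 0.512 CPM untreated. Its floxed control values were 4.60, 5.23 and 5.01 CPM after Aldara, against 14.7, 13.8 and 2.80 CPM untreated. The groups overlapped in both genotypes, and the high Aldara value came from Il12rb2-deleted replicate 1 alone. The log2 fold change of Adamts9 was 0.88 (adjusted p = 0.614) in Il12rb2-deleted and -1.07 (adjusted p = 0.626) in floxed control cells, and -0.10 (adjusted p = 0.943) on average.

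Of the inhibitors, Timp3 fell. Its product binds to the matrix and inhibits ADAMTS aggrecanases and some ADAM proteases as well as MMPs. In Il12rb2-deleted cells Timp3 stood at 15.0, 56.9 and 52.9 CPM after Aldara, against 72.3, 230.1, 83.2 and 93.7 CPM untreated. In floxed control cells it stood at 85.2, 63.5 and 119 CPM after Aldara, against 154.9, 224 and 155.2 CPM untreated. The groups did not overlap within either genotype, although Aldara-treated floxed control cells overlapped untreated Il12rb2-deleted cells. The averaged log2 fold change was -1.26 (-1.96 to -0.55, adjusted p = 0.0114), with -1.52 (SE 0.46, adjusted p = 0.0365) in Il12rb2-deleted and -0.99 (SE 0.47, adjusted p = 0.246) in floxed control cells. The call in Il12rb2-deleted cells was lost without Il12rb2-deleted untreated replicate 2 (-0.99, adjusted p = 0.107), the library that stood at 230.1 CPM, and without Il12rb2-deleted Aldara replicate 1 or 3 (adjusted p = 0.116 and 0.0574). Without the 3 libraries rich in Gm10800 the averaged value was -0.95 (adjusted p = 0.0570).

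Timp3 lies at chr10:86300372-86349506 (GRCm38, plus strand) inside Syn3, and 21.3% of its exon length is shared with Syn3 exons on the other strand. Syn3, which like Chchd10 was looked at for its overlap after the member's values were known, changed by -1.13 on average (adjusted p = 0.0131), and reads from the shared bases cannot be assigned to either gene. Timp2, which inhibits MMPs and also takes part in the activation of pro-MMP2 by MT1-MMP, stood at 48.0, 19.1 and 29.5 CPM after Aldara and at 15.9, 44.8, 10.3 and 14.6 CPM untreated in Il12rb2-deleted cells. Timp2 in floxed control cells stood at 8.43, 23.5 and 62.6 CPM after Aldara and at 44.2, 32.1 and 29.7 CPM untreated. Its groups overlapped widely, and the averaged change was 0.22 (-0.68 to 1.13). Timp4 stood at 0, 0.428 and 4.58 CPM after Aldara and at 2.83, 8.12, 0.389 and 2.43 CPM untreated in Il12rb2-deleted cells, and at 0.447, 2.21 and 0.535 CPM after Aldara and 7.81, 4.58 and 1.35 CPM untreated in floxed control cells. Timp1, known as an inducible inhibitor, was near the limit of detection. It stood at 0, 0.857 and 0.274 CPM after Aldara and at 0.686, 1.39, 0.0778 and 0.256 CPM untreated in Il12rb2-deleted cells, and at 0.830, 1.51 and 0 CPM after Aldara and 1.77, 1.39 and 0 CPM untreated in floxed control cells. The averaged changes of Timp1 (-0.52, adjusted p = 0.821) and Timp4 (-1.57, adjusted p = 0.280) did not pass.

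Divided by exon length, a few members held most of the group's level. The 5 highest held 72.9% of the summed level (CPM per kilobase of exon) in both Il12rb2-deleted groups, 77.7% in Aldara-treated floxed control cells and 70.7% in untreated floxed control cells. After Aldara, Adamts1, Mmp14 and Mmp11 held the top ranks in that order in both genotypes. In Il12rb2-deleted cells Mmp11 stood at 16.7 CPM per kilobase with Aldara and at 2.24 untreated, and Mmp14 at 17.5 with Aldara and 20.9 untreated. In floxed control cells Mmp11 stood at 17.1 with Aldara and 2.68 untreated, and Mmp14 at 19.8 with Aldara and 22.4 untreated. Untreated Il12rb2-deleted cells had Adamts1, Mmp3, Mmp14, Mmp2 and Timp3 on top. The place of Mmp3 rested on replicate 4. In an order computed without that library after the data were seen, Mmp3 held rank 5, at 14.3 CPM per kilobase, below Adamts1, Mmp14, Mmp2 and Timp3. By contrast, untreated floxed control cells had Adamts1, Mmp14, Timp3, Mmp2 and Adamts14.

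**Figure D3:**
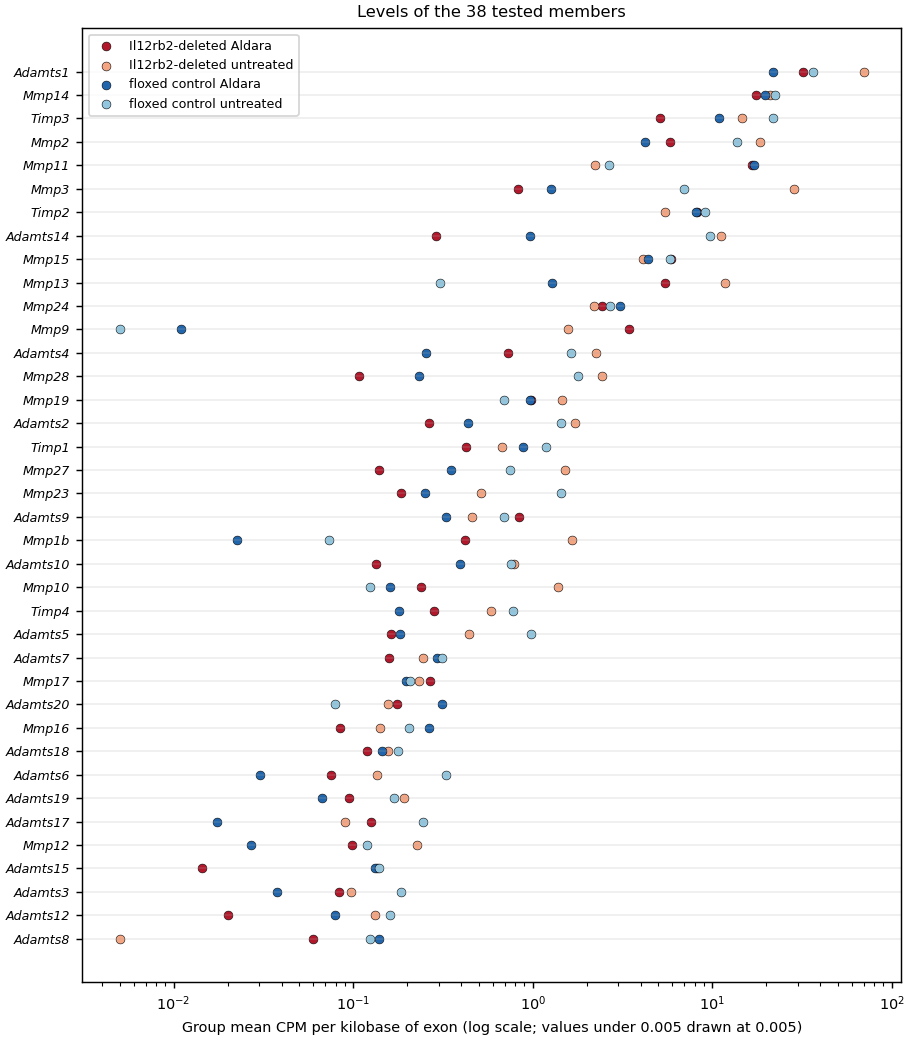
Mean level of the 38 tested members in each group, in CPM per kilobase of exon on a log axis, with 1 row per member and 1 point per group; the lowest means are drawn at the left end. Adamts1 and Mmp14 lie far right in all 4 groups, the 2 Aldara points of Mmp11 (16.7 and 17.1) lie right of its untreated points, and those of Mmp3, Mmp2 and Adamts14 lie left of theirs.

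Deletion of Il12rb2 gave no called member in either treatment, and neither did the interaction. By edgeR 0.0% of all genes were called for the deletion in untreated cells, 0.0% for the deletion in Aldara-treated cells and 0.0% for the interaction. At an unadjusted p under 0.05 there were 4 of 38 members in untreated cells (10.5%, against 3.73% of all genes), 2 in Aldara-treated cells (5.26%, against 4.30%) and 0 in the interaction, where 3.36% of all genes were. Mmp9 is in both deletion counts and passed the low-count filter only through Il12rb2-deleted libraries, which fixed its direction in advance. Mmp13, in the untreated count, passed largely through them, so no conclusion is drawn from these counts. DESeq2 called 1 member, Mmp9, for the deletion in untreated cells, and 0 for the deletion in Aldara-treated cells and for the interaction. Adamts1 was higher in all 4 untreated Il12rb2-deleted libraries than in the 3 untreated floxed control ones (371 ± 102 against 194 ± 30.4 CPM, SD), with a log2 fold change of 0.93 (95% interval 0.25 to 1.61, unadjusted p = 0.0105, adjusted p = 1). Mmp3 and Mmp13 were the other 2 members whose untreated genotypes did not overlap, and Mmp3 averaged 51.6 ± 51.8 CPM in Il12rb2-deleted against 12.5 ± 3.88 CPM in floxed control cells. The log2 fold change of Mmp3 was 2.05 (adjusted p = 1), and without Il12rb2-deleted untreated replicate 4 it was 1.04, with a mean of 25.8 ± 5.83 CPM (SD, n = 3) in Il12rb2-deleted cells. Such higher, non-overlapping values were found in 2.77% of all genes tested. After Aldara, Timp3 averaged 41.6 ± 23.1 CPM in Il12rb2-deleted and 89.3 ± 28.1 CPM in floxed control cells (log2 fold change -1.10, unadjusted p = 0.0358, adjusted p = 0.982), without overlap, a pattern shown by 4.72% of genes. Of the 38 members 2 had it, Timp3 and Adamts10, which is near that share. Adamts3, near the limit of detection, was higher without overlap, and no share over all genes is given for that.

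Mmp9 and Mmp13 were carried by few libraries. Mmp9, encoding gelatinase B, a protease of wound-edge keratinocytes and of neutrophils, stood at 0, 36.5 and 0 CPM after Aldara and at 2.74, 0, 7.62 and 12.04 CPM untreated in Il12rb2-deleted cells. Floxed control cells had 0, 0.116 and 0 CPM after Aldara and had no count in the 3 untreated libraries. Counts thus occurred in 4 of 7 Il12rb2-deleted libraries and, as a single read, in 1 of 6 floxed control libraries. Mmp13, encoding collagenase-3, stood at 0.818, 41.5 and 1.37 CPM after Aldara and at 4.46, 4.95, 9.18 and 108 CPM untreated in Il12rb2-deleted cells. Mmp13 in floxed control cells stood at 0, 0 and 10.2 CPM after Aldara and at 0, 2.45 and 0 CPM untreated. The unadjusted p for the deletion in untreated cells was 0.0103 for Mmp9 and 0.0270 for Mmp13 (edgeR, adjusted p = 1 for both). Because Mmp9 passed the low-count filter only through its Il12rb2-deleted libraries, no conclusion is drawn from its p-value.

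In the chromosome 9 group, 8 of the 10 members with a matched promoter hold the AP-1 motif. Of this group, Mmp1b passed the low-count filter only through Il12rb2-deleted libraries, untreated replicate 4 among them, so no conclusion is drawn from its values. Replicate 4 of the untreated Il12rb2-deleted cells stood apart from the other 3 for Mmp3, Mmp13 and Mmp1b. That library had the highest value of all 13 for Mmp3 (129.1 CPM), Mmp13 (108 CPM), Mmp1b (8.14 CPM) and Mmp12, the macrophage elastase gene (3.65 CPM). Mmp10, encoding stromelysin-2, was highest in replicate 3 of the same group at 4.67 CPM, and Mmp27 in replicate 2 at 5.15 CPM. In Il12rb2-deleted Aldara replicate 2, Mmp13 and Mmp9 were far above the other Aldara libraries of the genotype, while Mmp3 was at 3.93 CPM. Mmp1b and Mmp12 overlap on opposite strands over 10.8% of the Mmp1b exon length, and these genes are similar in sequence, so low counts of Mmp1b, Mmp10 and Mmp12 are uncertain.

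**Figure D4:**
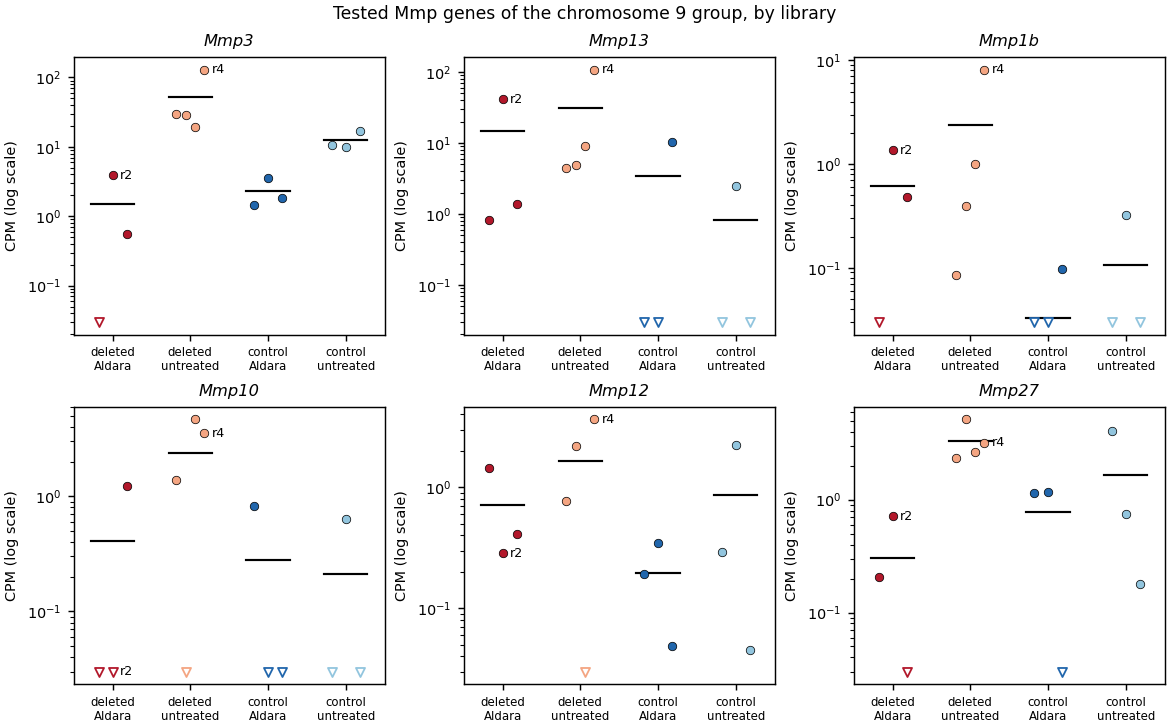
Levels of the 6 tested Mmp genes of the chromosome 9 group in each library, in CPM on a log axis, by group; lines are group means, open triangles mark libraries with no count, r4 is untreated Il12rb2-deleted replicate 4 and r2 is Il12rb2-deleted Aldara replicate 2. The point r4 is the highest for Mmp3, Mmp13, Mmp1b and Mmp12, and r2 reaches 41.5 CPM for Mmp13.

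Fibroblast and suprabasal keratinocyte marker sums moved with the members that fell. The 12 fibroblast markers summed to 89.9 to 224 CPM with Aldara against 930 to 2041 CPM untreated in Il12rb2-deleted cells, and to 166 to 363 CPM against 901 to 1092 CPM in floxed control cells. Of the 12, 10 were called lower and 1, Fbln1, higher on average, and none was at 0 throughout a group. In Il12rb2-deleted Aldara replicate 1, the library with no count of Mmp2, Mmp3 or Mmp28, 4 of the 12 were at 0. Suprabasal keratinocyte markers summed to 224 to 861 CPM with Aldara against 2732 to 5956 CPM untreated in Il12rb2-deleted cells, and to 351 to 593 CPM against 2484 to 4594 CPM in floxed control cells. Endothelial and mural markers overlapped in Il12rb2-deleted cells, summing to 23.4 to 56.3 CPM with Aldara against 45.7 to 259 CPM untreated. In floxed control cells they summed to 21.8 to 63.5 CPM against 108 to 244 CPM. On average 1 of these 9 markers, Rgs5, was called lower. The part of these cell types in the Mmp2 values and in the fall of Mmp3, Mmp28, Adamts2, Adamts14 and Timp3 was not tested. In bulk RNA, fewer cells of a type and less RNA per cell cannot be told apart.

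Sebaceous markers moved with Mmp11. The 8 markers summed to 4275 to 5444 CPM with Aldara against 401 to 2160 CPM untreated in Il12rb2-deleted cells, and to 4571 to 8205 CPM against 1014 to 2391 CPM in floxed control cells. All 8 were called higher on average and none was at 0 throughout a group, and the part of sebaceous cells in the rise of Mmp11 was not tested. The 10 neutrophil markers summed to 73.2 to 184 CPM with Aldara against 7.92 to 24.8 CPM untreated in Il12rb2-deleted cells, and to 27.6 to 73.1 CPM against 5.65 to 26.7 CPM in floxed control cells. Of them, 5 passed the filter, and S100a8 and S100a9, which keratinocytes also express, were called higher. Without S100a8 and S100a9, a sum added after the data were seen, the other 8 summed to 4.71 to 10.2 CPM with Aldara against 4.74 to 18.1 CPM untreated in Il12rb2-deleted cells, and to 5.75 to 56.9 CPM against 5.22 to 22.98 CPM in floxed control cells, and overlapped in both. Ltf alone reached 54.2 CPM in floxed control Aldara replicate 3 and 22.2 CPM in floxed control untreated replicate 1. In Il12rb2-deleted cells Cxcr2 stood at 9.31, 3.00 and 4.99 CPM after Aldara against 0.686, 1.19, 0 and 0 CPM untreated. Itgam went the other way there, at 0.102, 0.642 and 1.16 CPM against 1.71, 2.97, 4.43 and 4.04 CPM. Both overlapped in floxed control cells. Ltf was at 0 throughout Aldara-treated Il12rb2-deleted cells, and Elane and Mpo throughout Aldara-treated floxed control cells. Camp was at 0 throughout untreated Il12rb2-deleted cells, and Elane throughout untreated floxed control cells. The part of neutrophils in the Mmp9 values was not tested.

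**Figure D5:**
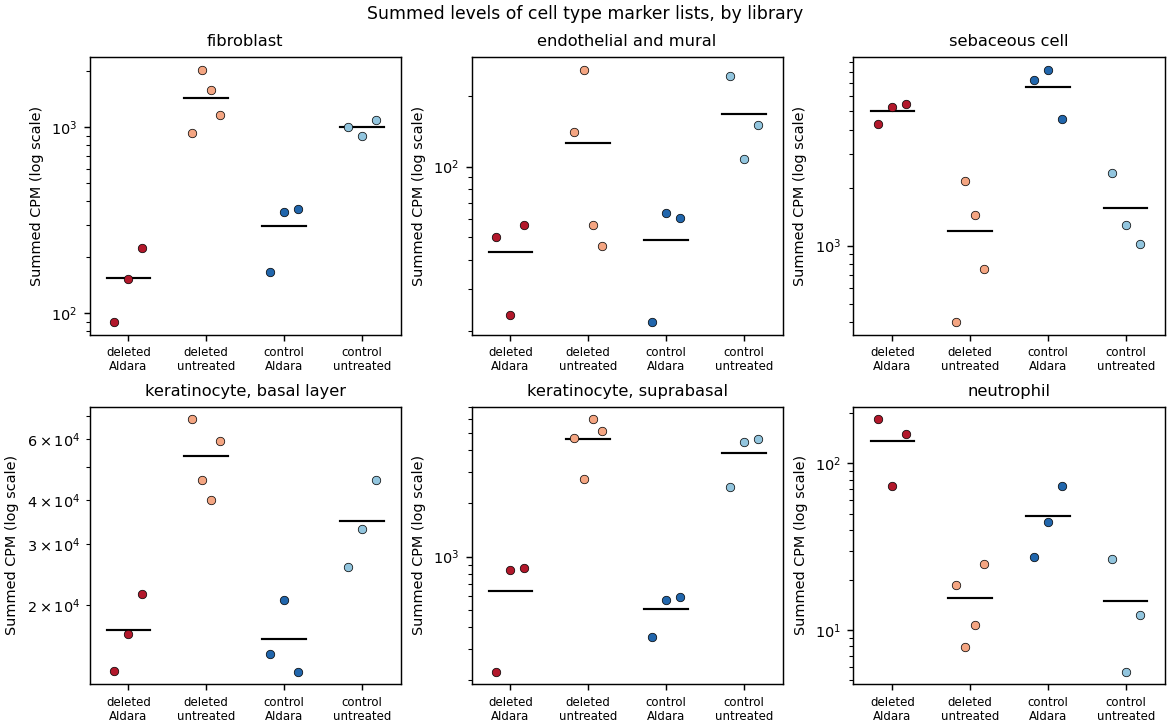
Summed CPM of 6 marker lists in each library on a log axis, by group, with lines at the group means. Fibroblast, basal and suprabasal keratinocyte sums are lower in the Aldara libraries of each genotype, and sebaceous sums are higher. The neutrophil sums, which include S100a8 and S100a9, are also higher, but without these genes they overlap between treatments.

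Relatives and partners of the members were read from lists of genes in the same averaged Aldara comparison. Of the ADAM proteases, membrane-bound relatives of ADAMTS, 0 of 10 tested were called higher and 2 lower, Adam8 (-2.36, SE 0.40, adjusted p = 0.000656) and Adam15 (-1.06, SE 0.20, adjusted p = 0.00115). ADAMTS-like proteins share the thrombospondin repeats without the protease domain, and 4 of 6 were called lower, with Adamtsl5 at -1.85, Adamtsl1 at -1.68, Papln at -1.64 and Adamtsl4 at -1.50. Of 24 genes of protease activation and control, 1 was called higher and 3 lower. The one that was higher was Furin, the convertase gene, with 100.6 ± 55.6 CPM with Aldara against 30.7 ± 15.0 CPM untreated in Il12rb2-deleted cells and 73.7 ± 42.1 CPM against 25.3 ± 10.3 CPM in floxed control cells (log2 fold change 1.63, SE 0.33, edgeR adjusted p = 0.00198). Those called lower were Serpinb2, encoding an inhibitor of urokinase, at -2.82, Plau, encoding urokinase itself, at -1.99, and Lrp1, an endocytic receptor for protease complexes, at -1.22.

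Genes of known substrates were mostly lower. Of 18 interstitial, proteoglycan and cell-surface genes tested, 0 were called higher and 10 lower, among them Fn1 (-3.21), Col3a1 (-3.18), Col1a2 (-3.05) and Cdh1 (-0.79), which encodes E-cadherin, an adhesion protein that MMPs cut at the cell surface. Col1a1, Col1a2 and Col3a1 are also on the fibroblast marker list. Of 17 basement membrane genes, 2 were called higher, Lamb1 (1.71) and Nid1 (1.70), and 9 lower, among them Col7a1 (-2.48), the anchoring fibril collagen, and Col17a1 (-2.16), a hemidesmosome collagen that is also on the basal keratinocyte list. Of 16 AP-1, ETS and Runx factors, families that bind many MMP promoters, 1 was called higher, Etv4 (1.90), and 8 lower, among them Fosl1 (-2.52), Atf3 (-2.10) and Fos (-1.63). Neither Runx gene, Runx1 (0.42, adjusted p = 0.573) or Runx2 (0.55, adjusted p = 0.690), was called. The background for these counts is the 13% of genes called higher and 11.9% called lower that is given above.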

How the data were processed

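Bulk RNA of FACS-sorted interfollicular keratinocytes was sequenced with the Smart-seq2 method, which keeps neither strand nor molecular identifiers, as single-end reads of 100 bases, per the labels' protocols. The authors deposited raw read counts per gene, whole numbers that had not been normalized, with 1 column per library. Reads were handled with STAR and with featureCounts of Subread on build GRCm38, per the submitters' processing notes. Their versions, the annotation and the handling of multi-mapping reads are not given in sources used here. No value column lacked a mapped sample (0 columns).

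Counts of 13 libraries were fitted with edgeR 4.0.16 (R 4.3.3): filterByExpr at a minimum count of 10, which kept 16051 genes and left out 9695, TMM scaling (factors 0.868 to 1.14), 1 coefficient per group and the quasi-likelihood F test. Adjustment was by Benjamini-Hochberg over all genes tested, with calls under 0.05. The SE was taken as the absolute log2 fold change over the root of F, and 95% intervals use the t distribution of the fit. CPM are TMM-scaled. The common dispersion was 0.424. Of 6 comparisons, 2 set Aldara against untreated within a genotype, 1 averaged these, 2 set Il12rb2-deleted against floxed control cells and 1 took the interaction. The step was also tested on simulated data.

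Coordinates and exon lengths came from GENCODE M21 (GRCm38), promoters from RefSeq. A count of 0 is read as at most 3 counts, for counting error only, and reads are not independent molecules. Replicates within a group had Spearman correlations of 0.902 to 0.966 across genes. Untreated Il12rb2-deleted replicates 3 and 4 had equal counts in 1622 of the genes tested, against 92 to 440 for the other pairs, but 1545 of these were genes with no count in either. Above 0 they shared 77 equal counts, against 58 to 264 elsewhere, and their median chi-square per gene was 16.1 (5.43 to 30.4 over all pairs), so no pair agreed within counting noise and each library was kept as 1 replicate. The text names members that were called in a comparison, or had a mean of at least 10 CPM in a group, and every Timp, and, of each other list, at most 4 called genes by smallest p. The remaining members of the chromosome 9 group were named after their values were seen. Members, lists and rules were chosen with earlier results of these data known. Alternatives were RLE scaling, no filter, DESeq2 1.42.0, a replicate block, leaving out the 3 libraries rich in Gm10800, and leaving out each library in turn.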

Additional observations from a re-analysis of the deposited data

Results flagged for a closer look

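In the group of 4 untreated Il12rb2-deleted libraries, 24 members were examined for a library far from the others, and 5 had a gap above Dixon's 95% limit for 4 samples. Replicate 4 stood apart for Mmp3 at 129.1 CPM, Mmp13 at 108.1 CPM and Mmp1b at 8.14 CPM, all of the chromosome 9 group. Mmp1b was examined only because it passed the low-count filter, which it did through Il12rb2-deleted libraries alone, replicate 4 among them. No conclusion is drawn from its flag. Replicate 2 stood apart for Timp3 at 230.1 CPM and Timp2 at 44.8 CPM. Chance alone flags about 1 in 20 such groups if values are normally distributed, and values of genes in the same library are not independent. The ratios were taken on CPM without a log, where that may not hold, so the rate of chance flags is not known. Groups of 3 libraries were not examined in this way.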

How the results depend on the processing

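Of 40 log2 fold changes followed under 5 alternatives other than leaving out 1 library, 185 of 200 values kept sign and call, 9 lost the call, 5 gained it and 1 changed sign. The sign change was Mmp15, averaged over the genotypes, at -0.020 with the replicate block. For Aldara in floxed control cells, 2 members were called, against 4 with DESeq2, 1 with the replicate block and 1 without the 3 libraries rich in Gm10800. For the deletion in untreated cells DESeq2 called 1 member and edgeR 0. Leaving out 1 library gave 1 to 4 members called for Aldara in floxed control, 4 to 7 in Il12rb2-deleted and 6 to 10 averaged, and 0 to 0 for both deletion comparisons and the interaction. Over all genes it gave 215 to 1451 calls in floxed control, 1650 to 2764 in Il12rb2-deleted, 3142 to 4004 averaged, 0 to 0 for both deletion comparisons and 0 to 1 for the interaction.

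Signs changed when 1 library was left out for the interaction of Mmp11 (-0.26 to 0.60), Adamts1 (-0.71 to 0.11) and Adamts2 (-1.89 to 0.29), and for the averaged change of Mmp15 (-0.036 to 0.16) and Timp2 (-0.28 to 0.54), none of them called. All genes called for Aldara in floxed control were 1132, against 2041 with DESeq2 and 270 without the libraries rich in Gm10800. Without those libraries the calls were 1466 instead of 2489 in Il12rb2-deleted and 2622 instead of 3994 averaged. For the deletion, no gene was called, against 3 without the filter and 22 with DESeq2 in untreated cells, 1 and 24 in Aldara-treated cells, and 2 with DESeq2 for the interaction. The causes were not tested beyond the smaller number of libraries.

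Of 18 same-numbered pairs of libraries, 6 had correlated deviations above 0.1 (-0.163 to 0.421). Pairs of unlike number were not compared, so whether replicate numbers pair the libraries cannot be told from these values. With the block, 6 members were called in Il12rb2-deleted and 8 averaged. Genes under about 1 CPM, such as Timp1, rest on few reads.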
